A study of Mus musculus with 12 samples.

Results

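The collagen chain genes were followed through the differentiation of mouse embryonic stem cells (ESCs) into embryoid bodies (EBs), the aggregates that ESCs form in suspension, on 12 expression arrays. A gene was a member if the single symbol of its array feature read Col, a number, a and a number, which gave 44 genes of the 19938 genes tested. No signal filter was applied. The 6 groups were WT, HP1αKO (Cbx5-/-) and HP1βKO (Cbx1-/-) cells, as ESCs and as EBs at day 7 after removal of leukaemia inhibitory factor, each with 2 biological replicates. ESCs were grown on gelatin and a layer of mitomycin-C treated mouse embryonic fibroblasts, called feeder cells, and all ESC types were sorted for the surface antigen SSEA1 before harvest or before EB formation. HM1 is the labelled line of the WT samples and R1 that of both knockouts. By these labels line and genotype cannot be told apart, while the study's methods call HM1 the littermate control of the knockout lines.

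Collagens are secreted proteins built from chains with long Gly-X-Y repeats that wind around each other into a helix. Fibrillar collagens form the cables of connective tissue, type IV collagen forms the sheet of basement membranes, and the other classes coat fibrils, link cells to the matrix or make fine networks. Fibroblasts are a major source of types I, III, V, VI and XII, whereas the early embryo first lays down type IV collagen in basement membranes. Of the 44 members, 11 were fibrillar, 6 belonged to the type IV basement membrane network, 3 to short-chain networks, 6 to the type VI beaded filaments, 9 were fibril-associated, 1 formed anchoring fibrils, 4 were transmembrane collagens, 2 were of the endostatin type and 2 were others.

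The promoters below are shown because Col4a1 and Col4a2 lie head to head and moved together between the cell states, and because Col1a2 and Col3a1 had the largest differences between ESC replicates and between knockout and WT EBs, respectively. They run 5′ to 3′ from 250 bases before to 50 bases after the RefSeq gene start (GRCm38.p6), and capitals mark the CCAAT box (CCAAT), the GC box (GGGCGG) and the TATA box (TATAAA) on either strand.
Col4a1 (chr8:11312777-11313076, minus strand): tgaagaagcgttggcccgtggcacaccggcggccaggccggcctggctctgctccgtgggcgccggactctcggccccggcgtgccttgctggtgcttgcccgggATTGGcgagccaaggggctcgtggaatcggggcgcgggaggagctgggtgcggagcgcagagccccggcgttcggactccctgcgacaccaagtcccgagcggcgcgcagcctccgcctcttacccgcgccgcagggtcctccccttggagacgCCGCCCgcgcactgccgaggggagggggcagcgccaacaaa
Col4a2 (chr8:11312555-11312854, plus strand): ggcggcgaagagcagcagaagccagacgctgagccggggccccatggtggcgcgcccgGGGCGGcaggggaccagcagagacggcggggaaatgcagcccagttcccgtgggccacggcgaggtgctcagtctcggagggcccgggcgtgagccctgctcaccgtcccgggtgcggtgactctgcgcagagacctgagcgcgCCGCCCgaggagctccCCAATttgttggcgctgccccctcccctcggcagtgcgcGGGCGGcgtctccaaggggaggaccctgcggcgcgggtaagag
Col1a2 (chr6:4505368-4505667, plus strand): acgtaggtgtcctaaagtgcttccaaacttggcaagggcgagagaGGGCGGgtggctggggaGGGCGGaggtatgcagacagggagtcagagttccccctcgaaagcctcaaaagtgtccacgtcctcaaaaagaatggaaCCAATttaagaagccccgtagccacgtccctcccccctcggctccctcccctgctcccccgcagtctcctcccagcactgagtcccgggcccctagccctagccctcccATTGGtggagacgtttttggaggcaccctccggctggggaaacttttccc
Col3a1 (chr1:45311288-45311587, plus strand): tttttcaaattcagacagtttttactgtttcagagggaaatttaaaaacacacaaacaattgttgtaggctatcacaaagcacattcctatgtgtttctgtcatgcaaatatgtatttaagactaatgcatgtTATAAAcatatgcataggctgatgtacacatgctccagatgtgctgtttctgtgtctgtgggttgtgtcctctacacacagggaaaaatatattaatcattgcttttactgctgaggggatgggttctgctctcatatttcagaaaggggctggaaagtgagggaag
The starts of Col4a1 and Col4a2 lay 21 bases apart on opposite strands, and 78 bases were common to both windows. The annotated 5′ ends overlapped, so each start lay inside the other gene. The bases before each start therefore run into the other gene and are not a separate upstream stretch. Col4a5 and Col4a6 were also head to head, with 1343 bases between their starts. The Col4a1, Col4a2 and Col1a2 windows had a GC content of 74%, 73.7% and 61%, against 37.7% for Col3a1, the only one of the 4 with a TATA box and without either other motif. RefSeq windows matched 35 of the 44 members, in 38 windows. The GC box was present in 60.5% of the member windows and in 35.7% of all 32851 windows. The share with a CCAAT box was 34.2% against 37.4%, and that with a TATA box 13.2% against 13.6%. A match of letters is a description and not a binding site.

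The targeted genes were checked first. Cbx1 lay at 7.59 and 7.99 (log2 signal) in the libraries labelled ESC HP1βKO and at 7.73 and 7.67 in EB HP1βKO, below the range of 9.36 to 10.05 on the other arrays. Cbx5 was lower in EB HP1αKO (9.20 and 9.21) than in EB WT (10.36 and 10.40). In ESCs it was 9.66 in the library labelled WT 1 but 8.29 in the library labelled WT 2, and 8.04 in the library labelled HP1αKO 1 but 9.99 in the library labelled HP1αKO 2. The libraries labelled ESC WT 2 and ESC HP1αKO 2 thus went against their labels. Results are given with and without both libraries where that fit could be made, as counts of called members or as differences. Single values are given where they are named as such. All 10 pluripotency markers were called lower in EB WT than in ESC WT, and 8 of 10 cardiac muscle markers higher. On each array, between 46.0% and 48.6% of all genes lay above a signal of 45 (log2 5.49), the study's background level.

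On at least 1 array 30 of the 44 collagen genes exceeded that background, as did 54.6% of all genes, and 10 did so on all 12 arrays. The 14 that stayed below it on every array were Col4a3, Col4a4, Col6a4, Col6a5, Col8a1, Col10a1, Col12a1, Col15a1, Col17a1, Col19a1, Col20a1, Col24a1, Col25a1 and Col28a1. The count per array was 25, 25 and 20 of 44 for the ESC libraries numbered 1 of WT, HP1αKO and HP1βKO, against 14, 12 and 19 for those numbered 2. In EBs it ran from 21 to 28. Levels on RMA arrays depend on the probes of each feature, so only differences of a gene between samples are compared here.

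**Figure D1:**
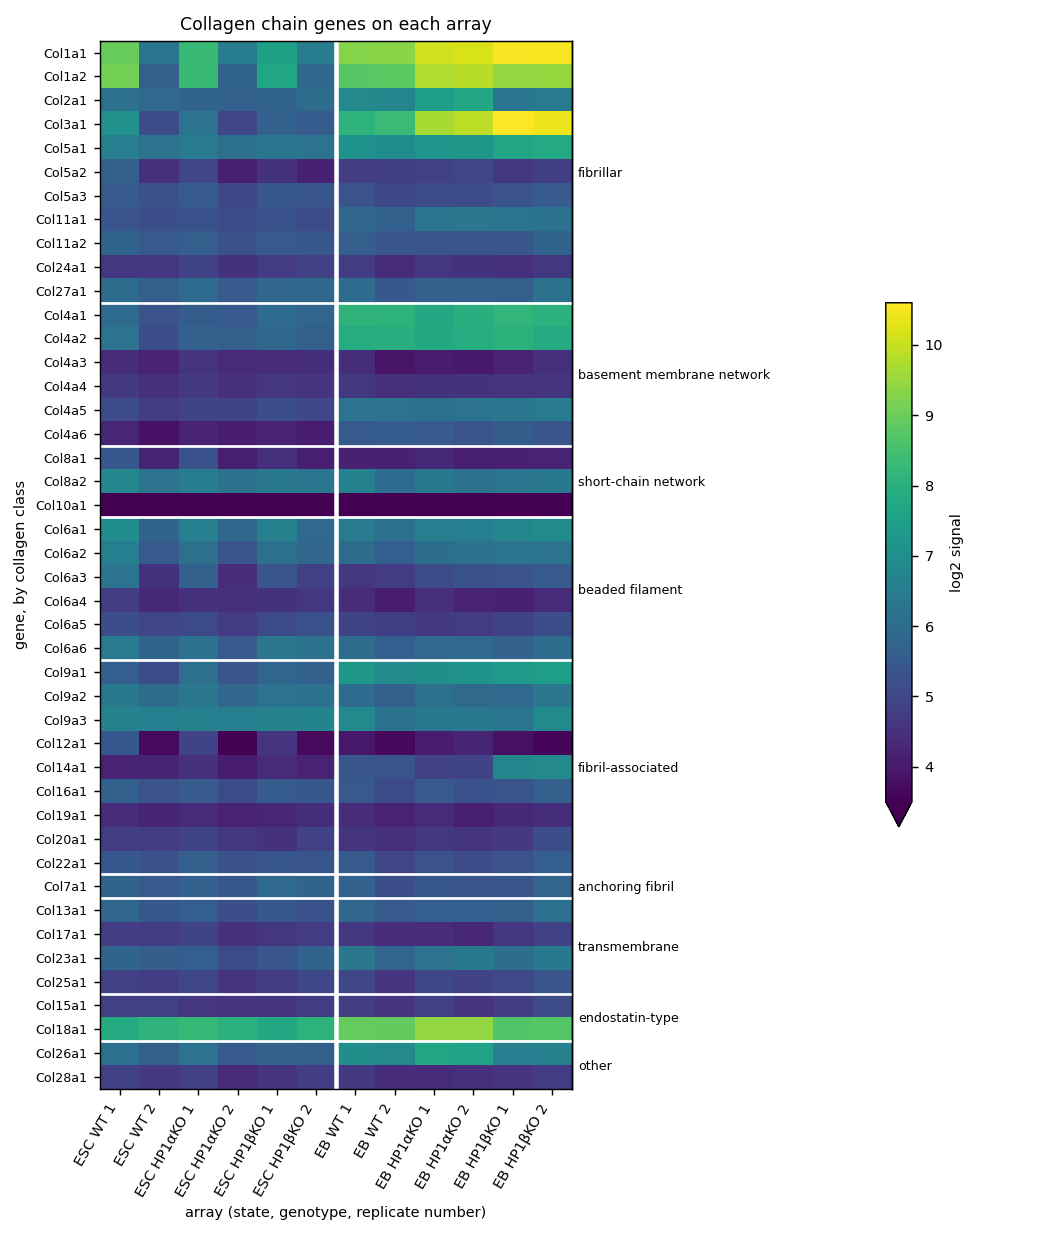
Log2 signal of the 44 collagen chain genes (vertical axis, grouped by class) on each of the 12 arrays (horizontal axis, replicates 1 and 2 of each group). Col3a1 went from 5.02 to 7.10 in ESCs up to 10.61 and 10.43 in HP1βKO EBs, and Col1a2 reached 9.10 in the ESC WT library numbered 1.

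ESC replicates differed in collagen level by their number. Col1a2, a chain of type I collagen, lay at 9.10, 8.30 and 7.71 in the ESC libraries numbered 1 (WT, HP1αKO, HP1βKO), but at 5.66, 5.77 and 5.89 in those numbered 2. The number 2 libraries lay close together, and every number 1 library stood above them. Replicate 2 was lower than replicate 1 by -2.59 ± 0.29 (log2 difference ± SE from limma, 3 pairs of arrays, adjusted p = 0.0383), and this was the 1 member of 44 called lower, with 0 called higher; 0.246% of all genes were called lower and 0.145% higher. Without either ESC HP1αKO library Col1a2 was no longer called (0 members), and without either ESC HP1βKO library 5 members were called lower, the added ones being Col1a1, Col6a3, Col8a1 and Col12a1. Since the replicate difference of each genotype enters separately, exchanging genotype labels between the number 2 libraries would not change the mean difference.

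Of the other members, 5 with larger replicate differences, chosen after their values were seen, did not pass the test. Col1a1, the partner chain of Col1a2, measured 8.96, 8.30 and 7.55 in the number 1 libraries and 6.23, 6.51 and 6.49 in the number 2 libraries, a difference of -1.86 ± 0.30 (adjusted p = 0.0667). Col12a1, which coats type I fibrils, measured 5.45, 4.93 and 4.57 against 3.67, 3.54 and 3.68 (-1.36 ± 0.19, adjusted p = 0.0513). In both genes the groups did not overlap and the WT pair was the widest apart, but Col12a1 stayed under the background of 5.49 on all arrays. Col6a3, a chain of the type VI beaded filament, measured 6.20, 5.71 and 5.36 against 4.54, 4.40 and 4.83 (adjusted p = 0.0926). Col8a1, a short-chain network collagen, measured 5.43, 5.28 and 4.47 against 4.23, 4.09 and 4.09 (adjusted p = 0.108), all under the background. Col3a1, which forms mixed fibrils with type I collagen, measured 7.10, 6.21 and 5.72 against 5.18, 5.02 and 5.55 (adjusted p = 0.192). Its HP1βKO pair differed by 0.17, the smallest of its 3 pairs. The type VI chains Col6a4 and Col6a5, also under the background, were mixed, with replicate 1 lower in HP1βKO.

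Over the whole family, 27 of 44 members (61.4%) were higher in replicate 1 of all 3 ESC genotypes and 0 were lower in all 3, while 17.9% of all genes were higher in all 3. The mean difference lay below 0 in 41 of 44 members, with a median of -0.24 against -0.01 over all genes. This median was -0.12 in the 14 members under the background on every array and -0.30 in the 30 others. The median level of those 14, replicate 1 against 2, was 4.79 against 4.55 in WT and 4.89 against 4.48 in HP1αKO. In HP1βKO it was 4.58 against 4.69. The shift in WT and HP1αKO was thus also present in genes with no signal above the background. An unadjusted p under 0.05 was reached by 14 of the 44 members and by 2831 of all 19938 genes. Without the 2 libraries that opposed their labels only the HP1βKO pair was left, in which 28 of 44 members (63.6%) and 47.9% of all genes were higher in replicate 1, with a median of 0.07 against -0.01, and the test could not be made. Replicate 1 exceeded replicate 2 by more than 1 log2 unit in 10 members in WT, 6 in HP1αKO and 2 in HP1βKO. Over all 19938 genes the counts were 430, 219 and 202. The WT and HP1αKO counts use the 2 libraries that opposed their labels. The type IV chains Col4a1 and Col4a2 differed by -0.31 ± 0.15 and -0.45 ± 0.20 (adjusted p = 0.419 and 0.386). No member was at an unadjusted p under 0.05 between EB replicates, where 0 of 44 members and 0% of all genes were called higher and 0 members and 0% of all genes lower. At an unadjusted p under 0.05 there were 266 genes in that EB comparison. The EB replicates did differ within genotypes, in opposite directions that the mean over genotypes cancels: the median member difference, replicate 1 minus replicate 2, was 0.23 in WT, 0.00 in HP1αKO and -0.15 in HP1βKO, against -0.02, 0.01 and 0.00 over all genes. The replicate difference of Col1a2 itself differed between ESCs and EBs by -2.65 ± 0.34 (adjusted p = 0.018), the 1 member called lower with 0 called higher, among 0.301% and 0.266% of all genes. That call was lost without any single EB library, when 0 members were called. It was kept without any single ESC library, with 7 members called without either ESC HP1βKO library and 2 without either ESC WT library. Without the 2 libraries that opposed their labels the difference was -1.86. It then rests on 1 ESC pair, that of HP1βKO, so no p-value is given.

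Markers of feeder fibroblasts, none of them a collagen, and markers of pluripotency differed by replicate number in opposite directions. The mean log2 signal of the 19 of 20 markers measured was 6.26, 5.63 and 5.33 in the ESC libraries numbered 1 and 4.77, 4.68 and 4.70 in those numbered 2, and 4 of the 19 were called lower in replicate 2 (median difference -1.05). The 4 were Fbln2, Loxl1, Tagln and Serpinf1, by -1.85, -1.34, -1.56 and -1.45 (adjusted p = 0.0455, 0.0257, 0.0383 and 0.0392). Fn1, also made by ESCs, was higher in the number 2 libraries of all 3 genotypes. In number 1 of all 3 genotypes 14 of the 19 were higher, as were 17.9% of all genes. The 10 pluripotency markers had means of 9.82, 10.15 and 9.83 in the libraries numbered 1 and 10.65, 10.52 and 10.25 in those numbered 2. None of the 10 was called. An unadjusted p under 0.05 was found for 7 of them, and for 2831 of all 19938 genes. In number 2 of all 3 genotypes 8 were higher, as were 17.4% of all genes. Thy1, a fibroblast surface protein, measured 7.47, 6.83 and 6.44 against 5.82, 5.90 and 5.87, and lay between 4.38 and 4.92 in EBs. Other markers of the list were high in EBs, such as Cdh11, with means of 9.98, 9.68 and 10.15 in WT, HP1αKO and HP1βKO. The mean of the 19 markers ran from 6.19 to 6.76 on the EB arrays. Lox, which cross-links collagen and is not in the marker list, measured 6.48, 5.99 and 4.92 against 3.44, 3.31 and 3.58. Neither Thy1 nor Lox was called by replicate number (adjusted p = 0.105 and 0.0505). SSEA1 marks ESCs and was sorted for, and the part of feeder cells or of the pluripotent state in the ESC collagen values was not tested. In such bulk RNA a change in the number of cells of a type and a change in RNA per cell cannot be told apart.

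**Figure D2:**
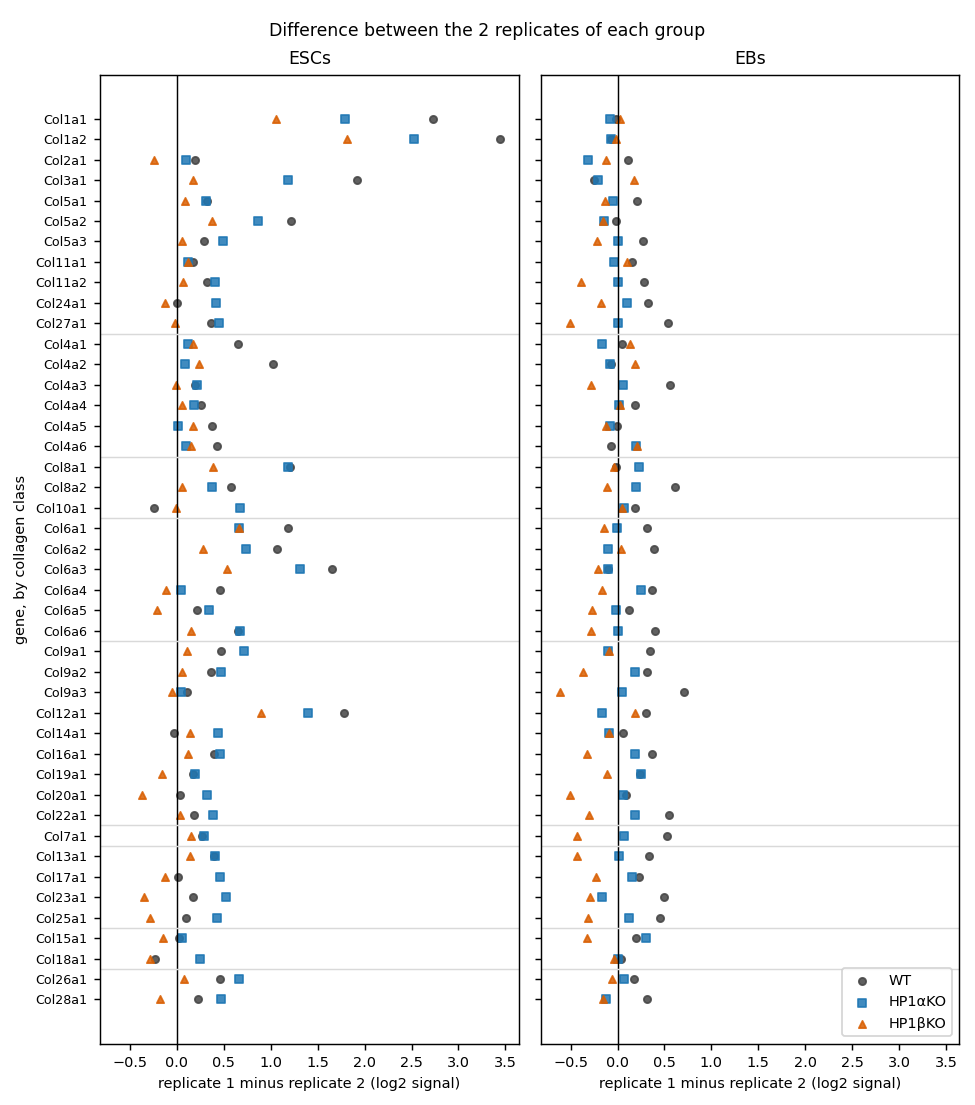
Replicate 1 minus replicate 2 (log2 signal, horizontal axis) for each collagen chain gene (vertical axis, by class) in ESCs (left) and EBs (right), with 1 point per genotype. Col1a2 differed by 3.44, 2.53 and 1.81 in WT, HP1αKO and HP1βKO ESCs and by no more than 0.07 in size in EBs.

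The knockouts were compared with WT within ESCs. In HP1αKO against WT, 0 of 44 members were called higher and 0 lower, as were 0% of all genes in each direction. HP1βKO against WT and HP1βKO against HP1αKO likewise gave 0 members and 0% of all genes higher or lower. At an unadjusted p under 0.05 there were 121, 396 and 367 genes in these comparisons, and 0 members in each. The member differences ran from -0.52 to 0.37 for HP1αKO against WT and from -0.73 to 0.37 for HP1βKO against WT. Col1a2, whose replicates lay far apart, differed by -0.35 ± 1.34 in HP1αKO and by -0.58 ± 1.34 in HP1βKO, errors larger than its EB differences. No member was called with the replicate number as a block or without the 2 libraries that opposed their labels.

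Of the 6 basement membrane chains, 4 were higher in EBs than in ESCs. Each group had 2 arrays. Col4a1, which with Col4a2 makes the type IV trimer of most basement membranes, measured 5.97 and 5.32 in ESC WT, 5.60 and 5.47 in ESC HP1αKO and 5.98 and 5.81 in ESC HP1βKO. In EBs it measured 8.13 and 8.08 in WT, 7.77 and 7.94 in HP1αKO and 8.17 and 8.03 in HP1βKO. All EB arrays stood above all ESC arrays, and the difference was 2.46 ± 0.19 in WT (5.49-fold, adjusted p = 2.41e-05), 2.32 ± 0.19 in HP1αKO (adjusted p = 2.58e-05) and 2.21 ± 0.19 in HP1βKO (adjusted p = 4.85e-05). Without the 2 libraries that opposed their labels, the values were 2.13 in WT and 2.26 in HP1αKO. Each was then against 1 ESC library, so no p-value is given. Col4a2, its partner across the common promoter shown above, measured 6.21 and 5.19 in ESC WT and 7.89 and 7.96 in EB WT. In the knockouts it measured 5.73 and 5.64 (HP1αKO) and 5.89 and 5.65 (HP1βKO) in ESCs, and 7.82 and 7.90, and 8.05 and 7.87, in EBs. The ESC and EB ranges were again apart. Its differences were 2.22 ± 0.26, 2.18 ± 0.26 and 2.19 ± 0.26 in WT, HP1αKO and HP1βKO (adjusted p = 0.000352, 0.000285 and 0.000331). Col4a5 and Col4a6, the X-linked head-to-head pair, lay between 4.76 and 5.21 and between 3.84 and 4.26 in ESCs, and between 6.12 and 6.41 and between 5.34 and 5.59 in EBs. Both were under the background on all ESC arrays, so only a bound can be given, the EB mean over the background of 5.49. In WT it was at least 1.64-fold for Col4a5 and at least 1.03-fold for Col4a6 (adjusted p = 0.000243 and 0.000183). Col4a3 and Col4a4, chains of the kidney and lung basement membranes, stayed between 3.87 and 4.72 on all arrays, under the background level. In EBs no type IV gene was called between any pair of genotypes, and differences ran from -0.25 to 0.17 in the knockouts against WT.

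Across the family, 12 of 44 members were called higher in EB WT than in ESC WT and 0 lower, where 12.6% of all genes were higher and 8.08% lower. HP1αKO gave 14 higher and 0 lower (15.1% and 9.76% of all genes), and HP1βKO 12 higher and 0 lower (12.6% and 8.1%). By class, in WT these were 4 of 6 type IV genes, 4 of 11 fibrillar, 2 of 9 fibril-associated, 1 of 2 endostatin-type and 1 of 2 others, with 0 of 6 beaded filament, 0 of 3 short-chain and 0 of 4 transmembrane genes. The 11 members called in all 3 genotypes were Col3a1, Col4a1, Col4a2, Col4a5, Col4a6, Col5a1, Col9a1, Col11a1, Col14a1, Col18a1 and Col26a1. All 6 EB arrays lay above all 6 ESC arrays in 14 members, those 11 with Col1a1, Col2a1 and Col23a1, and below in 0; the shares over all genes were 14.1% and 10.9%. The median member difference was -0.12 in WT, 0.13 in HP1αKO and 0.24 in HP1βKO, against -0.03, -0.03 and 0.00 over all genes.

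Outside type IV, 8 further members were called higher in EB WT. Col9a1, which coats type II fibrils, rose by 1.68 ± 0.23 in WT from 5.62 and 5.15 to 7.25 and 6.90 (adjusted p = 0.000922). Col18a1, a basement membrane proteoglycan that holds the endostatin domain, rose by 0.92 ± 0.14 from 7.88 and 8.11 to 8.93 and 8.90 (adjusted p = 0.00155). Col14a1, which coats type I fibrils, was under the background on all ESC arrays and in EB WT and EB HP1αKO, so its calls there (adjusted p = 0.00063 and 0.00928) compare levels that are both under it and carry no fold. In HP1βKO it rose by at least 2.45-fold (adjusted p = 3.66e-06). Col2a1, the fibrillar chain of cartilage and notochord, rose by 0.78 ± 0.15 in WT and 1.87 ± 0.15 in HP1αKO (adjusted p = 0.00485 and 2.03e-05), and differed by 0.45 ± 0.15 in HP1βKO (adjusted p = 0.0546). Col26a1, a less studied collagen, rose by 1.05 ± 0.21 in WT and 1.78 ± 0.21 in HP1αKO (adjusted p = 0.00679 and 0.000276), and Col11a1, a minor chain of cartilage fibrils that was under the background in ESCs, by at least 1.21-fold and 1.74-fold (adjusted p = 0.0208 and 0.00019). Of 11 cartilage and notochord markers, 3 were called higher in EB WT. Markers of extraembryonic endoderm, which makes a type IV collagen membrane, were called higher in 11 of 16, with a mean level of 7.45 and 7.59 on the EB WT arrays against 5.88 and 5.57 on the ESC WT arrays. Endothelial markers were called higher in 11 of 12. The part of these cell types in the collagen values was not tested.

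For the members that differed by ESC replicate number, the size of the EB difference depended on which ESC library it was set against. Col3a1 rose by 2.08 ± 0.53 in WT (adjusted p = 0.0204), and the difference was 1.12 against the ESC WT library numbered 1 and 3.04 against number 2. In the knockouts it rose by 4.17 ± 0.53 and 4.88 ± 0.53 (18.0-fold and 29.5-fold, adjusted p = 0.000393 and 0.000182). Col1a1 measured 9.32 and 9.34 in EB WT, above both ESC WT libraries, but by 0.37 over number 1 and 3.10 over number 2, and it was not called (1.74 ± 0.78, adjusted p = 0.162). In HP1αKO and HP1βKO it was called, by 2.72 ± 0.78 and 3.53 ± 0.78 (adjusted p = 0.0295 and 0.0101). Col1a2 in EB WT, at 8.76 and 8.82, lay below the ESC WT library numbered 1 and above number 2 (-0.31 and 3.13), and it was called in no genotype (adjusted p = 0.427, 0.088 and 0.112).

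With ESC libraries numbered 1 alone, 19 members were called in WT, 12 higher and 7 lower, the latter being Col5a2, Col6a1, Col6a2, Col6a3, Col6a6, Col8a1 and Col12a1. With those numbered 2 alone, 14 were called higher and 0 lower. Both fits hold 1 ESC library a genotype and take their spread from the EBs. Col6a3 in WT differed by -1.52 against number 1 (adjusted p = 8.97e-05) and by 0.13 against number 2 (adjusted p = 0.532). Col12a1 went the same way, with -1.65 and 0.13 (adjusted p = 0.000164 and 0.616). In HP1αKO both genes were called lower against number 1 and higher against number 2, with -0.52 and 0.79 for Col6a3 and -0.78 and 0.62 for Col12a1, among 19 and 21 members called. In HP1βKO 16 members were called with either number. With the replicate number as a block in ESCs, 17 members were called in WT, the 12 above and Col5a2, Col6a1, Col6a3, Col8a1 and Col12a1 as lower. The block added Col1a2 as higher and Col12a1 as lower in both knockouts, with Col8a1 as lower in HP1αKO and Col6a6 as lower in HP1βKO. Leaving out the 2 libraries that opposed their labels left 1 ESC library in WT and in HP1αKO, so no counts are given here. Members were then called in both directions in WT and HP1αKO, and only as higher in HP1βKO. The median member difference was -0.19, -0.13 and 0.24 in WT, HP1αKO and HP1βKO, against -0.02, -0.05 and 0.00 over all genes. The 4 expressed type IV genes were called higher with either number alone in each genotype.

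Leaving out 1 library moved the count in WT between 8 and 14. Col3a1 and Col11a1 were lost without the library labelled ESC WT 2 or either EB WT library, Col5a1 without the library labelled ESC WT 2 or EB WT 1, and Col26a1 without EB WT 1. In HP1αKO, Col1a1 and Col23a1 were lost without the library labelled ESC HP1αKO 2 or either EB library, and Col14a1 without EB HP1αKO 2. In HP1βKO, Col26a1 was lost without any 1 library, and Col1a1 without ESC HP1βKO 2 or either EB library.

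**Figure D3:**
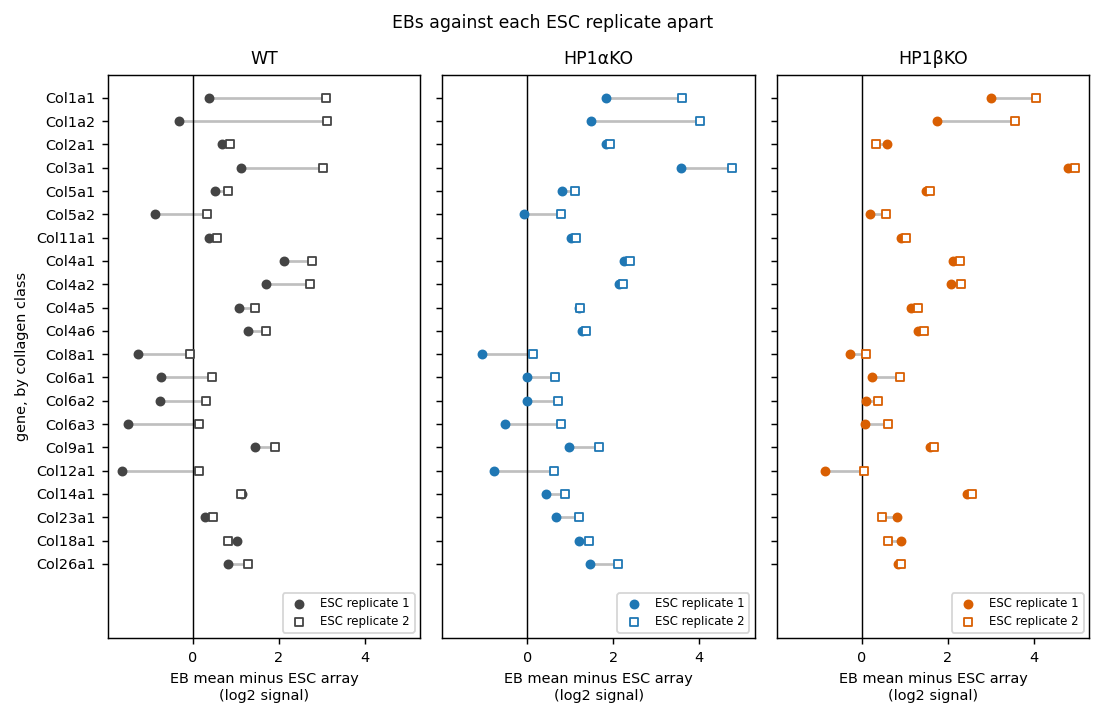
EB mean minus each ESC library (log2 signal, horizontal axis) for 21 collagen chain genes (vertical axis) in WT, HP1αKO and HP1βKO, with filled circles against ESC replicate 1 and open squares against replicate 2. In WT, Col1a2 fell on both sides of 0 (-0.31 and 3.13), whereas Col4a1 was at 2.13 and 2.78.

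Genes that fold, process, bind and break down collagen were counted against the 12.6% of all genes called higher and 8.08% called lower in EB WT. Of 19 measured genes for collagen folding and modification, 10 were called higher in EB WT than in ESC WT and 0 lower. Serpinh1, the collagen chaperone HSP47, measured 7.16 and 5.69 in ESC WT and 8.68 and 8.81 in EB WT (2.31 ± 0.38, adjusted p = 0.00228). Without the 2 libraries that opposed their labels its difference was 1.58 against the 1 ESC WT library left, so no p-value is given. P3h2, a prolyl hydroxylase that acts on type IV collagen, measured 8.07 and 8.14 in EB WT and was under the background in both ESC WT libraries, with a mean of 4.63, a rise of at least 6.12-fold (adjusted p = 0.000457). Of 17 genes for export, processing and cross-linking, 5 were higher and 2 lower, the latter being Pcolce2 and Pcolce, enhancers of procollagen cleavage. Collagen receptors gave 3 higher and 1 lower of 9, and enzymes and inhibitors of collagen breakdown 2 higher and 1 lower of 10, shares that in these small lists rest on 1 to 3 genes. Without the 2 libraries that opposed their labels 1 ESC WT library was left, so no counts are given. The median difference was then 0.58 for folding and modification and -0.29 for export, processing and cross-linking. It was 0.00 for receptors and -0.14 for breakdown, against -0.02 over all genes.

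In EBs the type I and III collagen chains were higher in both knockouts than in WT, among 5 of 11 fibrillar members called higher in each knockout. Col3a1 measured 8.09 and 8.34 in EB WT, 9.68 and 9.89 in EB HP1αKO and 10.61 and 10.43 in EB HP1βKO. The 3 groups did not overlap, and the differences from WT were 1.57 ± 0.13 in HP1αKO (2.97-fold, adjusted p = 0.000446) and 2.31 ± 0.13 in HP1βKO (4.94-fold, adjusted p = 2.63e-05). Col1a1 measured 9.32 and 9.34, 10.08 and 10.16, and 10.56 and 10.53 in the same order. It rose by 0.79 ± 0.09 in HP1αKO (adjusted p = 0.00261) and by 1.22 ± 0.09 in HP1βKO (2.32-fold, adjusted p = 0.000154). Col1a2 measured 8.76 and 8.82 in WT, 9.76 and 9.83 in HP1αKO and 9.45 and 9.47 in HP1βKO. Its order differed from that of Col1a1, with 1.00 ± 0.09 in HP1αKO and 0.67 ± 0.09 in HP1βKO (adjusted p = 0.000939 and 0.00329). Between the knockouts Col1a2 differed by -0.33 ± 0.09, which did not pass the test (adjusted p = 0.0654).

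Of the 44 members, 8 were called higher and 1 lower in EB HP1αKO against EB WT, where 3.03% of all genes were higher and 2.01% lower. In EB HP1βKO against EB WT, 8 were higher and 0 lower, against 4.35% and 4.21% of all genes. Both comparisons use the same 2 WT arrays. The fibrillar class held 5 of the 8 in each. Member medians were 0.02 and 0.16, against 0.01 and 0.03 over all genes.

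Col2a1, Col5a1 and Col11a1 were the other fibrillar members called in either knockout, while Col5a2, Col5a3, Col11a2, Col24a1 and Col27a1 were called in neither. Col2a1 measured 6.85 and 6.74 in EB WT, 7.44 and 7.75 in HP1αKO and 6.29 and 6.41 in HP1βKO. It rose by 0.80 ± 0.13 in HP1αKO (adjusted p = 0.00924), whereas HP1βKO differed by -0.44 ± 0.13 (adjusted p = 0.0714). That second value passed the test when the arrays were centred on their medians or genes under the background were left out. Col5a1, which starts type I fibrils, measured 7.14 and 6.94 in WT, 7.21 and 7.26 in HP1αKO and 7.71 and 7.85 in HP1βKO, and rose in HP1βKO by 0.74 ± 0.11 (adjusted p = 0.0043). In HP1αKO its difference was 0.19 ± 0.11 (adjusted p = 0.447). Col11a1 measured 5.85 and 5.69, 6.28 and 6.31, and 6.25 and 6.14, and rose by 0.52 ± 0.10 and 0.42 ± 0.10 (adjusted p = 0.0242 and 0.0384).

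Among the fibril-associated chains only Col14a1 was called. It measured 5.39 and 5.33 in EB WT, 4.87 and 4.96 in EB HP1αKO and 6.74 and 6.83 in EB HP1βKO. Only the HP1βKO arrays stood above the background of 5.49. It rose by at least 2.45-fold in HP1βKO (adjusted p = 7.54e-05). The call as lower in HP1αKO (adjusted p = 0.0371) compares levels that are both under the background, and it was lost without any 1 library. In ESCs it lay between 4.04 and 4.48. Col6a1 and Col6a3, chains of the type VI filament, were called higher in HP1βKO (adjusted p = 0.0208 and 0.00403), Col6a1 by 0.60 ± 0.12. Col6a3 was also called in HP1αKO (adjusted p = 0.0356), but its WT and HP1αKO arrays and 1 of 2 HP1βKO arrays were under the background, so no fold is given. In HP1αKO Col6a1 differed by 0.31 ± 0.12 (adjusted p = 0.241). Their EB levels, 6.39 and 6.08 to 6.76 and 6.91 for Col6a1 and 4.63 and 4.73 to 5.33 and 5.54 for Col6a3 from WT to HP1βKO, did not exceed the ESC WT library numbered 1.

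Col18a1 and Col26a1 had the opposite order of the knockouts. Col18a1 measured 8.93 and 8.90 in EB WT, 9.45 and 9.45 in HP1αKO and 8.68 and 8.72 in HP1βKO. Col26a1 measured 7.01 and 6.84, 7.69 and 7.61, and 6.54 and 6.60. Both rose in HP1αKO, by 0.54 ± 0.09 and 0.72 ± 0.10 (adjusted p = 0.0137 and 0.00596), and the HP1βKO differences of -0.22 ± 0.09 and -0.35 ± 0.10 did not pass the test (adjusted p = 0.219 and 0.0783). For Col26a1 the latter passed with arrays centred on their medians or with the background filter.

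**Figure D4:**
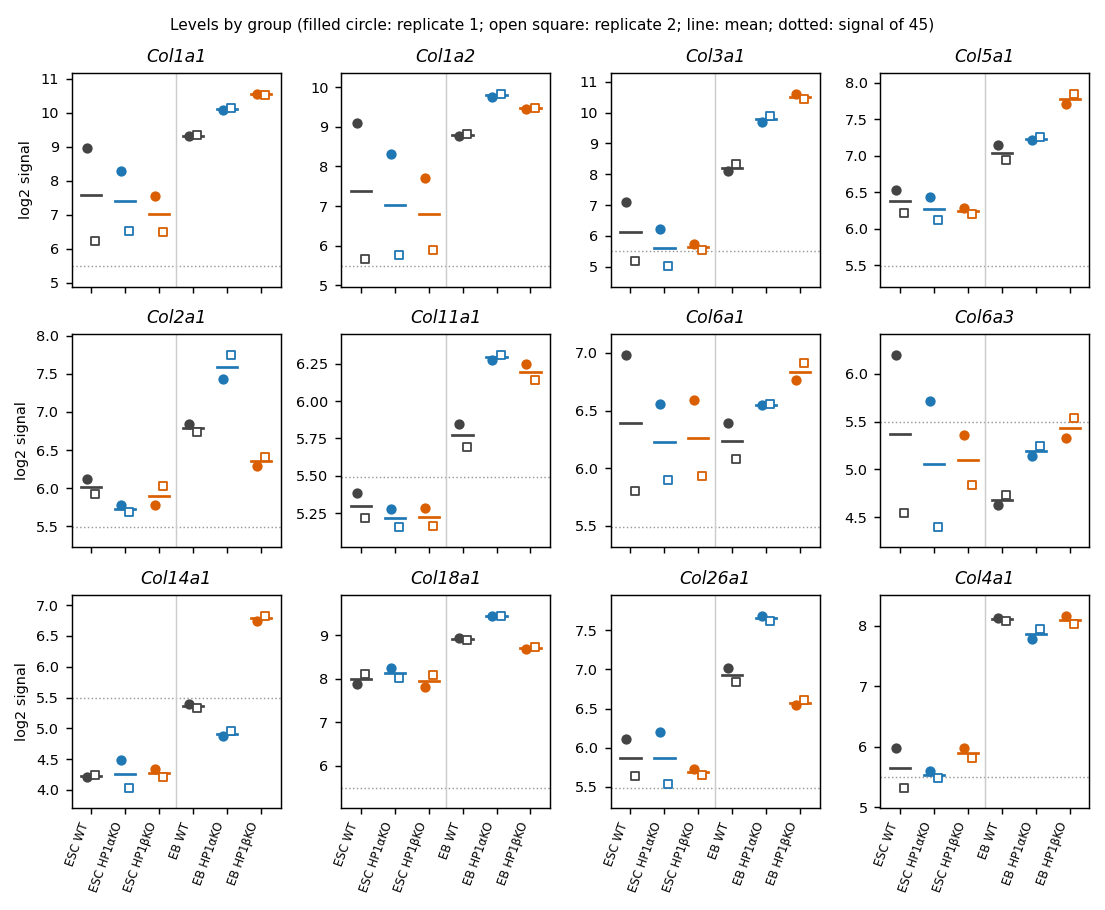
Log2 signal (vertical axis, own range per panel) of 12 collagen chain genes in the 6 groups (horizontal axis), with replicate 1 as a filled circle, replicate 2 as an open square, the mean as a line and a signal of 45 as the dotted line. In EBs the means of Col3a1, Col1a1 and Col5a1 were ordered WT, HP1αKO, HP1βKO from low to high, Col2a1, Col18a1 and Col26a1 were highest in HP1αKO, and Col4a1 stayed between 7.77 and 8.17.

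Comparing the knockouts with each other in EBs, 4 members were higher in HP1βKO and 3 lower, where 4.13% of all genes were higher and 5.64% lower. Col14a1 was higher by at least 2.45-fold (adjusted p = 1.37e-05), Col3a1 by 0.73 ± 0.13 (adjusted p = 0.00844), Col5a1 by 0.55 ± 0.11 (adjusted p = 0.016) and Col1a1 by 0.43 ± 0.09 (adjusted p = 0.0236). Col2a1 was lower with -1.24 ± 0.13 (adjusted p = 0.000477), Col26a1 with -1.08 ± 0.10 (adjusted p = 0.000353) and Col18a1 with -0.75 ± 0.09 (adjusted p = 0.0013). The groups did not overlap in any of the 7. With 2 arrays a group a call all but requires this, so it is no separate support.

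The EB calls differed in how far they rested on 1 library. In HP1αKO against WT 3 of the 9 calls, Col1a1, Col1a2 and Col3a1, held without any 1 library. The count was 6 and 5 without EB WT 1 and 2, and 4 and 3 without EB HP1αKO 1 and 2, and Col6a3, Col14a1 and Col18a1 were lost each time. Col11a1 was kept only without EB WT 1, Col26a1 only without 1 of the WT libraries, and Col2a1 was lost without EB HP1αKO 2. In HP1βKO against WT 6 of the 8 held, Col11a1 was lost without any 1 library and Col6a1 without EB WT 2 or EB HP1βKO 2. Between the knockouts Col2a1, Col14a1, Col18a1 and Col26a1 held, Col1a1 was lost each time, Col5a1 without any 1 library but EB HP1βKO 1, and Col3a1 without EB HP1αKO 1. When all 12 arrays shared 1 estimate of the spread, which ESC replicates widened, 1 member (Col2a1) was called in HP1αKO and 2 (Col5a1 and Col14a1) in HP1βKO.

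**Figure D5:**
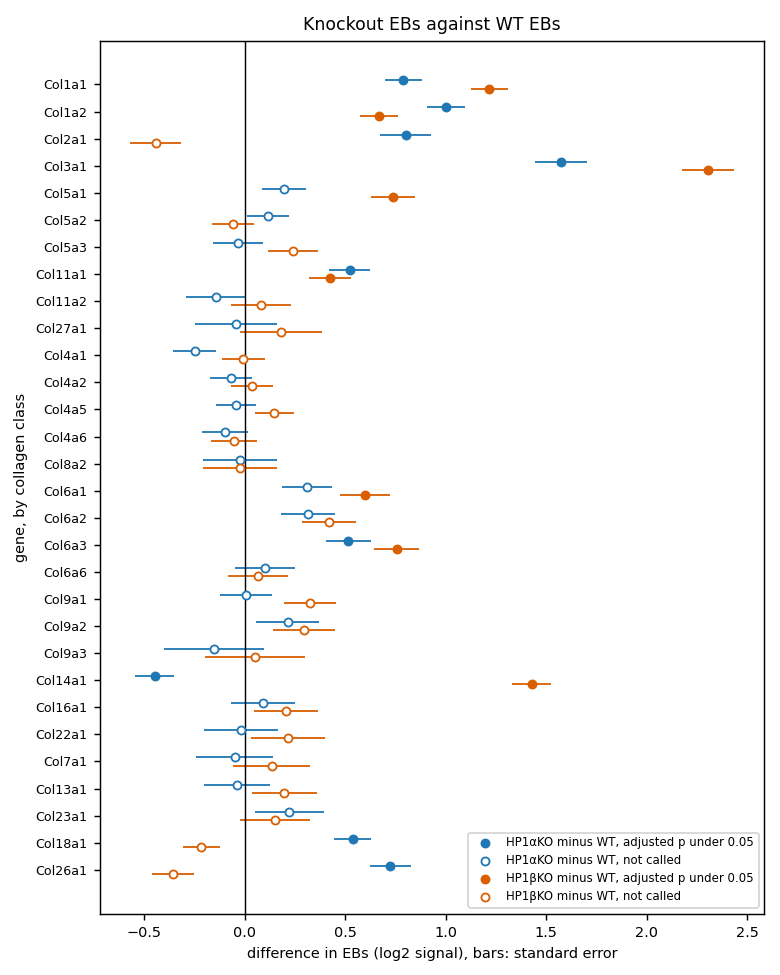
Difference of HP1αKO (blue) and HP1βKO (orange) EBs from WT EBs (log2 signal ± SE, horizontal axis) for the 30 collagen chain genes above background on at least 1 array (vertical axis), filled where the adjusted p was under 0.05. Col3a1 was at 1.57 and 2.31, Col14a1, under the background in WT and HP1αKO, at -0.45 and 1.43, and the type IV genes between -0.25 and 0.15.

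Of the 19 fibroblast markers, 5 were called higher and 1 lower in EB HP1αKO, and 8 higher and 2 lower in EB HP1βKO, against 3.03% and 2.01%, and 4.35% and 4.21%, of all genes. Ccdc80 was lower in both and Loxl1 in HP1βKO. Their mean level was 6.19 and 6.28 in EB WT, 6.53 and 6.59 in HP1αKO and 6.76 and 6.62 in HP1βKO. Prrx1, a transcription factor of limb and craniofacial mesenchyme, measured 6.52 and 6.61, 6.97 and 7.08, and 8.37 and 8.20. The order of the knockouts differed between the markers called higher in both. Differences in HP1αKO and HP1βKO were 0.46 and 1.72 in Prrx1 and 0.91 and 1.77 in Serpinf1. They were 2.33 and 0.94 in Lum, 1.87 and 1.01 in Dcn and 1.46 and 1.45 in Postn. Thy1 lay between 4.38 and 4.92 in EBs and Lox between 3.10 and 3.38, both under the background. Cardiac muscle markers were called higher in 7 of 10 in HP1αKO and lower in 9 of 10 in HP1βKO. Of 10 pluripotency markers, 1 was higher and 6 lower in HP1αKO, and 6 higher and 1 lower in HP1βKO, with means of 6.89 and 7.07 in EB WT, 6.31 and 6.21 in HP1αKO and 7.78 and 7.55 in HP1βKO. Cartilage and notochord markers were called higher in 3 of 11 in HP1αKO and lower in 1 of 11 in HP1βKO. Whether the collagen differences followed the makeup of the EBs was not tested.

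Among the genes that process collagen, Pcolce, the enhancer of procollagen cleavage, measured 7.66 and 7.85 in EB WT, 8.71 and 8.77 in HP1αKO and 10.19 and 10.10 in HP1βKO. It rose by 0.99 ± 0.11 and 2.38 ± 0.11 (adjusted p = 0.0016 and 1.25e-05), in the order of Col3a1 and Col1a1. Export, processing and cross-linking genes gave 2 higher and 0 lower of 17 in HP1αKO and 6 higher and 1 lower in HP1βKO, where Bmp1, the procollagen C-proteinase, rose by 0.68 ± 0.11 (adjusted p = 0.0066). Folding and modification genes gave 1 higher and 0 lower of 19 in HP1αKO, and 4 higher and 1 lower in HP1βKO. P4ha2, a prolyl 4-hydroxylase subunit, rose by 1.13 ± 0.10 in HP1βKO (adjusted p = 0.00026), and P3h2 fell by 0.77 ± 0.12 on the log2 scale (adjusted p = 0.00571). Receptors gave 0 higher and 0 lower of 9 in HP1αKO, where 3 had an unadjusted p under 0.05, and 2 higher and 1 lower in HP1βKO. Breakdown enzymes and inhibitors gave 1 higher and 0 lower of 10 in HP1αKO and 0 higher and 1 lower in HP1βKO.

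Among the transmembrane collagens, Col23a1 measured 5.61 and 5.09 in ESC HP1αKO and 6.21 and 6.37 in EB HP1αKO and rose by 0.94 ± 0.22 (adjusted p = 0.0122), with 0.38 ± 0.22 in WT and 0.64 ± 0.22 in HP1βKO (adjusted p = 0.296 and 0.0727). In EBs no transmembrane collagen was called between genotypes, and differences from WT ran from -0.17 to 0.42. Col7a1, the anchoring fibril chain of skin, lay between 5.20 and 5.91 on all arrays. The short-chain collagens Col8a1, Col8a2 and Col10a1 differed from WT by -0.02 to 0.07 in EBs of either knockout. Col10a1, a marker of hypertrophic cartilage, lay between 2.80 and 3.48 throughout.

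The knockout difference itself was compared between EBs and ESCs. For HP1βKO 1 member was called higher and 0 lower (0.416% and 0.401% of all genes), Col14a1, whose difference from WT was larger in EBs by 1.38 ± 0.21 (adjusted p = 0.017), with all ESC and EB WT arrays under the background. It lost the call without the library labelled ESC HP1βKO 2 or any 1 of the 4 EB libraries, when 0 members were called. The Col3a1 value was 2.81 ± 0.75 (adjusted p = 0.163). With the replicate number as a block 4 members were called higher, Col14a1 with Col1a1, Col3a1 and Col5a1, and without the 2 libraries that opposed their labels 7 were. Without the library labelled ESC WT 2 alone there were 2, Col14a1 and Col3a1. For HP1αKO 0 members were called higher and 0 lower (0.15% and 0.0502% of all genes), 5 had an unadjusted p under 0.05, and Col3a1 was called higher without the library labelled ESC WT 2.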

How the data were processed

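The log2 signals deposited by the authors came from RMA in Affymetrix Expression Console, per the labels, and entered the tests with no further scaling. RMA corrects background, equalizes the distributions of arrays and summarizes probes, which can shrink differences of dim genes. Versions: not given in the sources used here. Features were named from the Mouse Gene 1.0 ST annotation, which held the identifiers of the table, whereas the study's methods name an exon array. A single gene symbol was held by 21789 of 35556 features, several by 1621 and none by 12146. Only the first kind was used, keeping for each of 19938 genes its feature with the highest mean. For 2 members, Col6a5 and Col6a6, this chose between 2 features. The build of the annotation is not named, and promoter positions are those of the RefSeq windows.

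The test was that of limma 3.58.1 (R 4.3.3), with two-sided p-values adjusted by the Benjamini-Hochberg method over all 19938 genes in each comparison and a threshold of 0.05. EBs and ESCs were compared in a fit of all 12 arrays with a mean per group, knockouts within the 6 arrays of a state, and replicate numbers within a state with genotype as a term. Differences of differences used all 12 arrays. The test was checked on simulated arrays with independent noise around a common mean per gene. These arrays lacked the replicate difference shared by the ESC genotypes and the libraries that opposed their labels. The check therefore does not bear on either. With 2 arrays a group the number of arrays limits the precision. The labels call them biological replicates, and whether they came from separate cultures is not given, so p-values measure only the spread between these samples.

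Same-number replicates were paired in ESCs, from the data: the replicate differences of WT and HP1αKO, WT and HP1βKO, and HP1αKO and HP1βKO correlated over genes at 0.39, 0.41 and 0.22. In EBs the values were 0.11, -0.47 and -0.09. A block for the number was an alternative to the fits reported first. Other alternatives were a background filter at a signal of 45, centring of each array on its median, the mean of all features per gene, array weights, a rule of 1.5-fold in every pair of arrays with a signal above 45, all 12 arrays in the knockout fits, ESC libraries of 1 number alone, leaving out each library and leaving out the 2 ESC libraries in which Cbx5 went against the label. Where a group kept 1 array, it was assumed to vary like the others. The members, gene lists and tests were chosen with earlier results of these data known. In each comparison the called members with the largest changes were named, up to 10 in each direction, and any member could be named; of the other lists up to 4 called genes and those on which a result turns. Bone and stratified epithelium markers were also measured: 0 of 5 and 1 of 8 were called higher in EB WT than in ESC WT, and 1 and 2 lower.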

Additional observations from a re-analysis of the deposited data

Results flagged for a closer look

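Col1a2 was singled out because its replicate difference, 2 minus 1, differed between ESCs and EBs by -2.65 (limma, adjusted p = 0.018): replicate 2 was lower in 3 of 3 ESC genotypes, by 3.44, 2.53 and 1.81 (given there as replicate 1 minus replicate 2), while the EB pairs differed by at most 0.07 in size. Feeder fibroblast markers moved with the same ESC libraries, and their part in the difference was not tested.

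Col14a1 was singled out because the HP1βKO difference from WT was larger in EBs than in ESCs by 1.38 (limma, adjusted p = 0.017). Both EB HP1βKO arrays, at 6.74 and 6.83, lay above both EB WT arrays, at 5.39 and 5.33, while in ESCs the values were 4.35 and 4.21 against 4.22 and 4.24, all under the background of 5.49.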

How the results depend on the processing

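Up to 3 called members with the largest change in each comparison were followed through the alternatives. None turned its direction under any run, but some lost their call, and several counts moved. Other members were not followed in this way. In HP1αKO, Col6a3 and Col12a1 changed direction between the 2 ESC libraries, as given above. For EB WT against ESC WT the count was 19 with ESC libraries numbered 1 alone, instead of 12. For EB HP1αKO against EB WT it was 1 with all 12 arrays and 5 with the pairwise rule, instead of 9, and ran from 3 to 6 with 1 library left out. For EB HP1βKO against EB WT it was 2 with all 12 arrays, instead of 8, and 6 to 9 with 1 library left out, and for EB HP1βKO against EB HP1αKO 4 with all 12 arrays, instead of 7, and 4 to 8. The wider spread of the ESC replicates enters that fit. For ESC replicate 2 against 1 it was 2 with centred arrays, 2 with array weights and 7 with the pairwise rule, instead of 1, and 0 to 5 with 1 library left out. For EB replicates array weights gave 20 instead of 0, and for the replicate difference between states 7 instead of 1; neither estimation of weights converged, so these counts are not usable. That last result was 2 with centred arrays and ran from 0 to 7 with 1 library left out. The HP1αKO difference between states gave 1 instead of 0 without the 2 ESC libraries that opposed their labels, and 0 to 1 with 1 library left out. The HP1βKO difference between states gave 2 with array weights, 4 with the replicate block and 7 without those 2 libraries, instead of 1, and 0 to 2 with 1 library left out. The replicate block changed the calls of EBs against ESCs as given above (17, 17 and 15 members), and in EBs, where the numbers do not pair the samples, it left 6, 7 and 6 members called for HP1αKO against WT, HP1βKO against WT and the knockouts with each other. The cause of these moves was not tested. The replicate tests in ESCs could not be fitted without both libraries that opposed their labels, which leaves no residual degrees of freedom. For the 14 members under the background on all arrays, low signal limits what the arrays can show.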
